A study of Mus musculus with 24 samples.

Results

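The genes described here are the 10 that write, erase or protect DNA methylation in this mouse stem cell series: Dnmt1, Uhrf1, Dnmt3a, Dnmt3b, Dnmt3l, Tet1, Tet2, Tet3, Tdg and Zfp57. They were chosen by name, and all 10 were found among the 24016 genes of the deposited gene table, each on 1 row. Female embryonic stem cells of the hybrid line 16.7 were compared as a G9a knockout (KO) and its parental line (labelled WT). G9a, encoded by Ehmt2, is a histone methyltransferase that places H3K9me2. The 4 groups are KO cells at day 10 of differentiation, WT cells at day 10, KO cells at day 0 (undifferentiated) and WT cells at day 0. Every group carries Tsix +/TST, so the parental cells are not wild type at Tsix, a regulator of Xist, and each line is a single cell line; whether the KO was 1 clone is not given in the sources used here. Day 10 cells had spent 4 days in suspension and 6 days plated, without the cytokine LIF. Each group has 3 libraries of total RNA, 12 altogether. H3K9ac, an acetyl mark found at active promoters, was profiled by ChIP with a single sample for each group.

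DNA methylation in mammals sits mostly on cytosines followed by guanine (CpG). DNMT3A and DNMT3B place it anew with the help of DNMT3L, and DNMT1, brought to newly copied DNA by UHRF1, keeps it through cell division. The TET enzymes oxidise it, and TDG cuts out the oxidised bases. ZFP57 binds methylated imprinting control regions and protects them. In mouse embryonic stem cells TET1 and TET2 are known as the main TET enzymes, while TET3 is better known from the egg and from differentiated tissues.

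Values are read numbers over the gene that the authors brought to the same total in each library (scaled reads), and a value per kb is divided by the annotated gene span, introns included. The libraries held 2081129 to 30527844 reads. The 3 deep ones were WT replicate 3 and KO replicates 2 and 3 of day 0, and the other 9 held at most 4220140; all day 10 libraries were shallow. Rn45s, the ribosomal RNA precursor, made up 14.8 to 25.1% of a shallow library's reads and 0.115 to 0.129% of a deep one's, so day and library type partly go together, and values among shallow libraries are given beside the day results. The common total includes Rn45s, which leaves a smaller part of it to the other genes in a shallow library. Scaled reads and ratios of day means carry this difference. Replicates 2 and 3 of the KO at day 0 were the most alike of all pairs (log2 correlation 0.994, chi-square per gene 2.73), which was still more than counting noise. The labels do not say whether libraries came from separate cultures, so p-values measure only the spread between these libraries. Olfactory and vomeronasal receptor genes, which these cells do not use, took 1093 CPM (counts scaled to equal depth) in one day 10 library (WT replicate 3) and 1072 in one day 0 library (KO replicate 1), and at most 377 elsewhere. Ehmt2 ran from 375 to 758 scaled reads in the KO libraries of both days, and from 719 to 1375 in the WT libraries; the ranges overlap through WT replicate 3 of day 10, and reads are counted over the whole gene, so they do not show the deletion itself. The 12 stem cell markers summed to 32538 to 40411 scaled reads in KO cells and 32366 to 49974 in WT cells at day 0, and all were detected there. At day 10 they summed to 11790 to 15312 in KO cells, against 3619 to 8637 in WT cells, so the line with more stem cell marker RNA left was the KO. Fibroblast markers (12 genes) summed to 2582 to 8141 scaled reads in KO cells and 1340 to 5559 in WT cells at day 10, and to 1141 to 3434 in KO cells and 998 to 8591 in WT cells at day 0; Dcn was at 0 in KO cells at day 10 and Lum in WT cells at day 0. The day 0 maximum is WT replicate 1, the other WT libraries holding 1169 and 998. The 4 Y-linked genes, which mark male feeder cells in a female line, summed to 2.70 to 19.8 in KO cells and 0 in WT cells at day 10; at day 0 they summed to 80.9 in KO replicate 1 and 202 in WT replicate 1, and to 7.68 to 10.7 in the other libraries. Their part in the results was not tested. In bulk samples fewer cells of a type and less RNA per cell cannot be told apart.

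Across the set, 3 genes fell with differentiation in both lines, the demethylases Tet1 and Tet2 and the imprint protector Zfp57. In KO cells Tet3 also rose. No gene of the set passed the test between KO and WT cells at either day, where 0% of all genes tested passed. In limma, fitted on log2 of scaled reads plus 1 over 20624 genes with Benjamini-Hochberg adjustment (called at adjusted p under 0.05), 4 of 10 were called in the day comparison of KO cells (3 lower, 1 higher), where 8.89% of all genes were called (6.46% lower and 2.43% higher). In WT cells 3 of 10 were called, all lower, against 4.42% of all genes (2.4% lower and 2.02% higher). At an unadjusted p under 0.05 were 5 of 10 in each line, beside 32.4% of all genes in KO cells and 16.8% in WT cells. The median log2 change of the 10 genes was -0.20 in KO cells and -0.46 in WT cells, beside -0.68 and -0.20 for all genes tested. Ranked from the lowest change, Tet1, Tet2 and Zfp57 stood at percentiles 27.9, 20.2 and 24.8 of all genes tested in KO cells. They stood at percentiles 2.63, 2.34 and 0.999 in WT cells. The median of all genes depends on the scaling. With TMM scaling it was -0.40 in KO cells and -0.07 in WT cells, and the split of calls moved too, to 734 higher and 852 lower in KO cells (main scaling: 502 and 1332) and to 473 and 337 in WT cells (main scaling: 417 and 494); RLE scaling gave 784 and 699 in KO cells and 586 and 397 in WT cells.

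**Figure D1:**
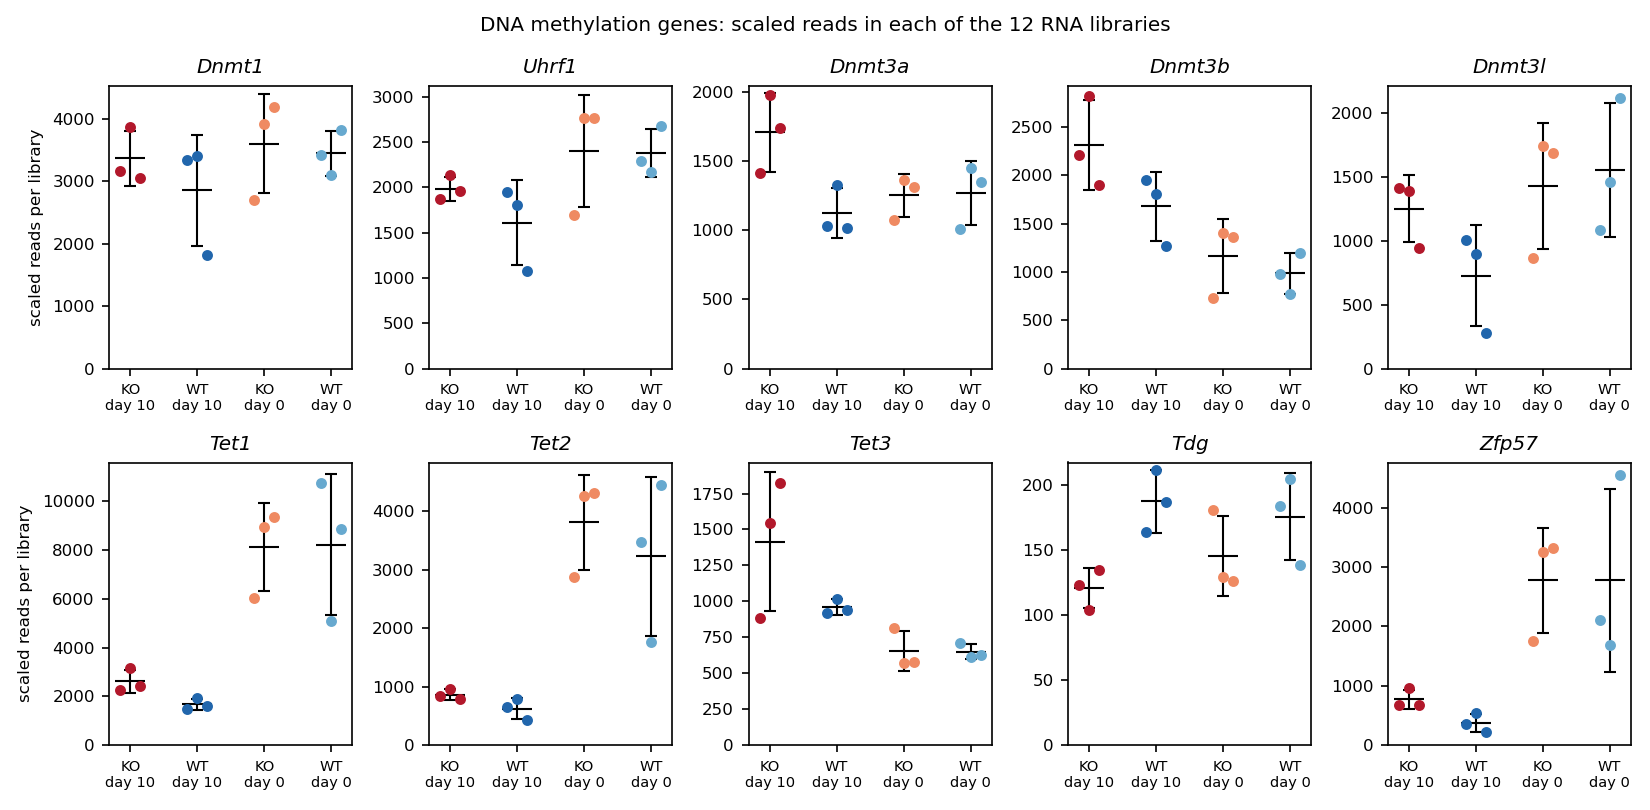
Scaled reads (y axis, linear, from 0) of each of the 10 genes in the 3 libraries of each group; points are libraries, and the bar and whiskers give the mean and SD. Tet1, Tet2 and Zfp57 stand lower at day 10 in both lines, with no overlap between days, and Tet3 stands higher.

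**Figure D2:**
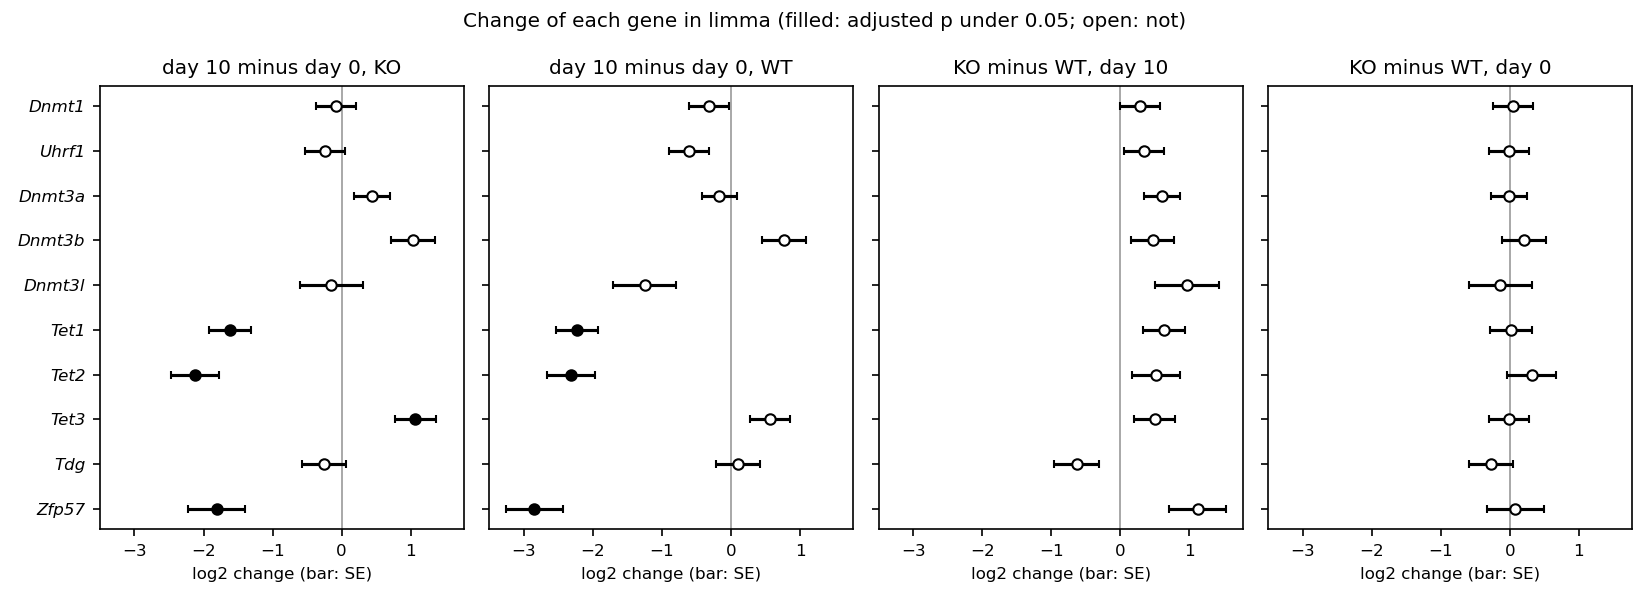
Log2 change (x axis, on log2 of scaled reads plus 1) of each gene in the 4 comparisons, with its moderated standard error; filled points passed limma at an adjusted p under 0.05. The filled points are Tet1, Tet2 and Zfp57 in both day comparisons and Tet3 in KO cells, and no point between KO and WT is filled.

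Tet1 (chromosome 10, 62267318 to 62342762, minus strand, mm9), which converts 5-methylcytosine to 5-hydroxymethylcytosine and is the TET enzyme with the most reads per kb in stem cells, fell in both lines. At day 10 it held 2269, 3149 and 2432 scaled reads in the KO libraries, against 1488, 1933 and 1601 in the WT libraries. The day 0 values were 6049, 8933 and 9371 in KO cells and 10745, 5069 and 8847 in WT cells. Every day 10 library was below every day 0 library, as for 36.5% of all genes in KO cells and 11.8% in WT cells. At day 10 the 3 KO libraries were above the 3 WT libraries, as for 5.54% of all genes. The day 10 mean was 0.322 times the day 0 mean in KO cells (log2 -1.62, SE 0.30, limma adjusted p = 0.0101) and 0.204 times in WT cells (log2 -2.24, SE 0.30, adjusted p = 0.000986). The KO change no longer passed without KO replicate 3 of day 10 (adjusted p = 0.0617) or of day 0 (adjusted p = 0.0509). Among the shallow libraries alone the log2 difference was -1.22 in KO cells (3 against 1 library) and -2.15 in WT cells (3 against 2). With TMM scaling of all libraries the log2 change was -1.31 in KO cells and -2.09 in WT cells.

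Tet2 (chromosome 3, 133126641 to 133207354, minus strand, mm9), a second TET enzyme, followed Tet1 closely over the 12 libraries (Pearson r 0.977 on the log2 scale, a description only, since the libraries share their groups). It held 845, 961 and 782 scaled reads in KO cells at day 10, against 642, 789 and 431 in WT cells. Day 0 gave 2867, 4254 and 4305 in KO cells and 3473, 1758 and 4452 in WT cells. No day 10 library reached the lowest day 0 library, as for 36.5% of all genes in KO cells and 11.8% in WT cells. Among shallow libraries alone the log2 difference was -1.74 in KO cells and -2.03 in WT cells. Tet2 fell to 0.226 times its day 0 mean in KO cells (log2 -2.12, SE 0.35, limma adjusted p = 0.00464) and to 0.192 times in WT cells (log2 -2.32, SE 0.35, adjusted p = 0.00184), and it passed in both lines under every alternative run. Its promoter is shown because it is the CpG-richest of the set and lay under a listed H3K9ac peak in all 4 groups, with a q under 0.05 in all but WT cells at day 0. It is the RefSeq start of GRCm38.p6 at chr3:133544341-133544640, minus strand, 250 bases before the start and 50 after it, with each CpG in capitals.
Tet2: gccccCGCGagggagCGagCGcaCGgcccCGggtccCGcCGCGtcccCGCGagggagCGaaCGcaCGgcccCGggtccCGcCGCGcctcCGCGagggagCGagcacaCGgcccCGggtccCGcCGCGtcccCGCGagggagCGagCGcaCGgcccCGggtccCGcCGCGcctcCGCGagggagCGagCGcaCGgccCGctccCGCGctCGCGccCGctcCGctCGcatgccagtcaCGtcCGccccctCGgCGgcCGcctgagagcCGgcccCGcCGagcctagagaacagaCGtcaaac
It holds 57 CpGs. The motif CG reads the same on both strands, the median over 32851 RefSeq promoters of that length is 7, and 0.152% of them hold as many or more.

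Tet3 (chromosome 6, 83312368 to 83391672, minus strand, mm9), the third TET enzyme, moved the other way. At day 10 the KO libraries held 881, 1542 and 1820.3 scaled reads, against 917, 1019 and 943 in the WT libraries. At day 0 they held 813, 568 and 578 in KO cells and 711, 614 and 627 in WT cells. In both lines every day 10 library was above every day 0 library, as for 8.93% of all genes in KO cells and 6.63% in WT cells. Tet3 rose in KO cells (ratio of means 2.17, log2 1.07, SE 0.29, limma adjusted p = 0.0401); the WT values (ratio 1.48, log2 0.56, SE 0.29, adjusted p = 0.362) did not pass. Among shallow libraries the log2 difference was 0.73 in KO cells and 0.54 in WT cells. The KO call is near the threshold and was lost under 8 of 17 alternatives, among them the fits without KO replicate 3 of day 10 (log2 0.85, adjusted p = 0.161) or replicate 2 (0.97, adjusted p = 0.131).

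The balance within the TET family therefore differed between days in each library. Per kb of gene span, Tet3 stood at 0.516 ± 0.177 of Tet1 in KO cells and 0.549 ± 0.043 in WT cells at day 10, and at 0.082 ± 0.039 in KO cells and 0.082 ± 0.029 in WT cells at day 0 (SD, n = 3 each). The ratio of Tet3 to Tet2 was 1.69 ± 0.66 in KO cells and 1.66 ± 0.49 in WT cells at day 10, against 0.187 ± 0.088 in KO cells and 0.236 ± 0.109 in WT cells at day 0. Day 10 and day 0 libraries did not overlap in either ratio, and KO and WT libraries overlapped at each day. With 3 against 3 libraries the smallest exact permutation p is 0.1. These ratios do not depend on the scaling of a library, since both genes share it.

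**Figure D3:**
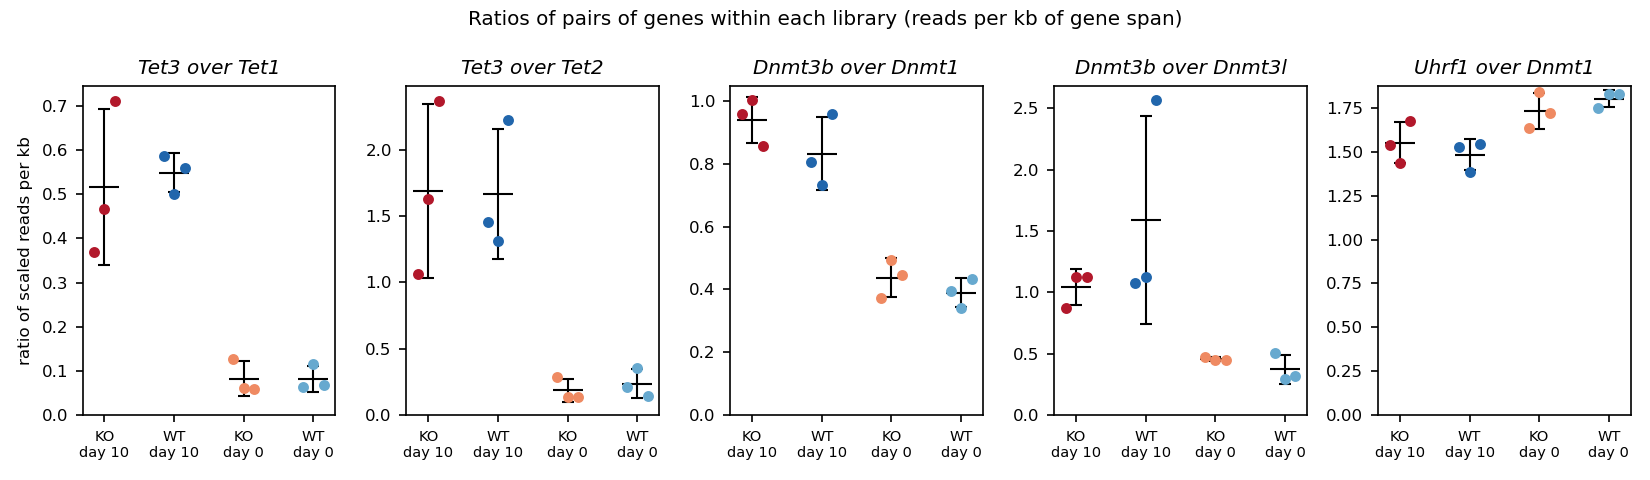
Ratio of scaled reads per kb between 5 pairs of genes (y axes, linear, from 0) within each library; points are libraries, and the bar and whiskers give the mean and SD of 3. Tet3 over Tet1 and Tet3 over Tet2 are higher at day 10 than at day 0 in both lines, as is Dnmt3b over Dnmt1. Uhrf1 over Dnmt1 lies between 1.39 and 1.84 in every library, with the WT libraries of day 10 all below those of day 0.

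Tdg (chromosome 10, 82092583 to 82113239, plus strand, mm9) encodes the glycosylase that removes the bases TET enzymes have oxidised. It had the fewest reads of the set, 31 to 488 per library, and RefSeq lists the related Tdg-ps and Tdg-ps2, with which reads could be shared, so its values are uncertain. At day 10 it held 123, 104 and 135 scaled reads in KO cells, against 164, 212 and 187 in WT cells. At day 0 the values were 181, 129.6 and 126 in KO cells and 184, 205 and 139 in WT cells. The KO libraries of day 10 were all below the WT libraries, as for 12.6% of all genes, with a log2 change of -0.63 (SE 0.32, limma adjusted p = 0.446), and day 0 libraries overlapped. Between days the log2 change was -0.26 in KO cells (limma adjusted p = 0.588) and 0.10 in WT cells (limma adjusted p = 0.926). The shallow libraries alone gave -0.59 in KO cells and -0.06 in WT cells. Tdg was the 1 gene of the set below 0 between KO and WT at day 10.

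Zfp57 (chromosome 17, 37138108 to 37147674, plus strand, mm9), a KRAB zinc finger protein that keeps imprinted regions methylated, had the highest level per kb of the set at day 0, 290.2 ± 92.4 scaled reads per kb in KO cells and 290.0 ± 162 in WT cells (SD, n = 3 each). It had the lowest log2 change of the 10 genes in WT cells. The day 10 libraries held 682, 956 and 671 scaled reads in KO cells, against 352, 539 and 224 in WT cells. The day 0 libraries held 1756, 3249.9 and 3322 in KO cells and 2101, 1678 and 4544 in WT cells. All day 10 values were below all day 0 values, as for 36.5% of all genes in KO cells and 11.8% in WT cells. At day 10 the KO libraries were above the WT libraries, as for 5.54% of all genes. Zfp57 fell to 0.277 times its day 0 mean in KO cells (log2 -1.81, SE 0.41, limma adjusted p = 0.0225) and to 0.134 times in WT cells (log2 -2.85, SE 0.41, adjusted p = 0.00134). Among shallow libraries the log2 difference was -1.21 in KO cells and -2.42 in WT cells. The WT fall passed under every alternative run, and the KO fall did not pass with TMM scaling (log2 -1.50, adjusted p = 0.054) or in 5 of the 6 fits that left out 1 KO library. Between KO and WT at day 10 the ratio of means was 2.07 (log2 1.12, 95% interval 0.23 to 2.00, limma adjusted p = 0.307, exact permutation p = 0.1). Without WT replicate 3 of day 10, one of the libraries with receptor gene reads, that difference was 0.80 (adjusted p = 0.77).

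RefSeq gives Zfp57 3 starts. The second, 1362 bases downstream of the first, is shown because listed H3K9ac peaks of all 4 groups lie within 1 kb of it. These had a q under 0.05 at day 10 and not at day 0. The first start, the one of the gene table, had a peak that near in the KO lists and in neither WT list. The KO peaks are the same ones at both starts, centred 1397 bases downstream of the first at day 10 and 1603 at day 0. The WT peaks, centred 1946 bases downstream at day 10 and 2368 at day 0, lay beyond 1 kb of the first start. The second start stands at chr17:37002275-37002574 (GRCm38.p6, plus strand), CpGs in capitals.
Zfp57: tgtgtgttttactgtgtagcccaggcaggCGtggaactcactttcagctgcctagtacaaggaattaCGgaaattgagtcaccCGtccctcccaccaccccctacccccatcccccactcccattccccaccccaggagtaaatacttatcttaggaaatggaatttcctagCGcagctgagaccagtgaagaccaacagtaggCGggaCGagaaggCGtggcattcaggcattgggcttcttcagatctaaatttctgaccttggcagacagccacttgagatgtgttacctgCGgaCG
It holds 9 CpGs, against 6 at the first start, and 45.8% of RefSeq promoters hold as many as 9 or more.

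Among the de novo genes, Dnmt3b (chromosome 2, 153475185 to 153513466, plus strand, mm9), an enzyme that methylates DNA during early development, stood higher in every day 10 library of a line than at day 0, without passing the main test. It held 2209.5, 2820.2 and 1904 scaled reads in KO cells at day 10, against 1952, 1809.8 and 1270.4 in WT cells. Day 0 values were 729, 1405 and 1362 in KO cells and 983, 768 and 1200.3 in WT cells. Within each line every day 10 library was above every day 0 library, as for 8.93% of all genes in KO cells and 6.63% in WT cells. Restricted to shallow libraries, the log2 difference between days was 1.65 in KO cells and 0.92 in WT cells. The ratio of day means was 1.98 in KO cells (log2 1.03, SE 0.32, limma adjusted p = 0.0559) and 1.70 in WT cells (log2 0.77, SE 0.32, adjusted p = 0.226), and neither passed. In KO cells it passed with TMM scaling (log2 1.34, adjusted p = 0.0385), RLE scaling (1.32, adjusted p = 0.0147), edgeR (1.15, adjusted p = 0.0373), DESeq2 (1.31, adjusted p = 0.000217) and a depth term (1.49, adjusted p = 0.00932); in WT cells it passed with DESeq2 (1.00, adjusted p = 0.00816), a depth term (1.00, adjusted p = 0.0233) and without the libraries with receptor gene reads (0.96, adjusted p = 0.0336). Of all 20624 genes in KO cells, TMM scaling called 1586, RLE scaling 1483 and the depth term 2866. There edgeR called 1065 of 14884 genes and DESeq2 3350 of 17307. For WT cells DESeq2 called 1823 of 15547 genes and the depth term 1270 of 20624. The fit without the libraries with receptor gene reads called 2141 of 19942 in WT cells. Relative to Dnmt1, per kb, Dnmt3b stood at 0.940 ± 0.074 in KO cells and 0.832 ± 0.116 in WT cells at day 10, and at 0.438 ± 0.062 in KO cells and 0.390 ± 0.046 in WT cells at day 0 (SD, n = 3 each), with no overlap between days.

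Dnmt3a (chromosome 12, 3806980 to 3914443, plus strand, mm9), the other de novo enzyme, stood apart between the lines at day 10 without passing the test. The KO libraries then held 1412, 1977 and 1737 scaled reads, against 1028, 1330.1 and 1018 in the WT libraries. Day 0 gave 1077, 1367 and 1314 in KO cells and 1008, 1453 and 1348 in WT cells. At day 10 the KO libraries were all above the WT libraries, as for 5.54% of all genes (ratio of means 1.52, log2 0.60, SE 0.26, limma adjusted p = 0.39, exact permutation p = 0.1), and at day 0 they overlapped. Of the alternatives run, DESeq2 called this difference (log2 0.68, adjusted p = 0.0404), as it called 558 of 16428 genes, and the others did not. The day comparison gave a log2 change of 0.44 in KO cells (limma adjusted p = 0.236) and -0.17 in WT cells (limma adjusted p = 0.82). Shallow libraries alone gave 0.65 in KO cells and -0.12 in WT cells. DESeq2 called the KO change (0.75, adjusted p = 0.00457), as it called 3350 of 17307 genes.

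Dnmt3l (chromosome 10, 77505032 to 77526367, plus strand, mm9), a cofactor with no catalytic activity of its own that stimulates the DNMT3 enzymes, spread widely among WT libraries. At day 10 it held 1412, 1394 and 947 scaled reads in KO cells, against 1009.8, 896 and 276 in WT cells. At day 0 it held 862, 1742 and 1689.9 in KO cells and 1086, 1457 and 2121 in WT cells. The value 276 belongs to WT replicate 3, and the other WT libraries of day 10 lay below or within the KO range. The log2 difference between KO and WT at day 10 was 0.97 (SE 0.46, limma adjusted p = 0.426), and 0.37 without that library. Between days the log2 change was -0.15 in KO cells (adjusted p = 0.834; -0.48 without KO replicate 1 of day 0) and -1.25 in WT cells (adjusted p = 0.165), the last being -0.65 (adjusted p = 0.344) without WT replicate 3 of day 10. In WT cells no day 10 library reached the lowest day 0 library, as for 11.8% of all genes. The second of its 3 RefSeq starts, 7555 bases downstream of the first, is shown as a contrast to the Tet2 promoter: it too had a listed H3K9ac peak within 1 kb in all 4 groups, with a q under 0.05 in KO cells at day 0 alone. It stands at chr10:78049592-78049891 (GRCm38.p6, plus strand), CpGs in capitals.
Dnmt3l: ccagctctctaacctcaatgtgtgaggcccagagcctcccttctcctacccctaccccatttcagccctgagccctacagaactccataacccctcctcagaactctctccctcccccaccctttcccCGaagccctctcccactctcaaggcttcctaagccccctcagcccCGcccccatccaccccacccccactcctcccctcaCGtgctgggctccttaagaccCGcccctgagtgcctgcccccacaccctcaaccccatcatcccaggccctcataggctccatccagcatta
It holds 4 CpGs, and 68.6% of RefSeq promoters hold as many or more.

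Neither gene of the maintenance pair passed in any comparison. Dnmt1 (chromosome 9, 20711650 to 20764332, minus strand, mm9), the maintenance methyltransferase, held 3169, 3869 and 3053 scaled reads in KO cells at day 10, against 3335, 3399 and 1822 in WT cells. At day 0 the values were 2699, 3913 and 4191 in KO cells and 3424, 3094 and 3812 in WT cells. All 4 groups overlapped apart from the low WT replicate 3 of day 10. Its log2 change between days was -0.08 in KO cells (95% interval -0.70 to 0.54, limma adjusted p = 0.86), a direction that turned to 0.23 with TMM scaling, and -0.32 in WT cells (-0.94 to 0.30, adjusted p = 0.65). This change was 0.31 in KO cells and -0.25 in WT cells among shallow libraries alone.

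Uhrf1 (chromosome 17, 56442760 to 56462909, plus strand, mm9), which reads hemimethylated DNA and recruits DNMT1, went with Dnmt1 over the 12 libraries (Pearson r 0.932, a description). Its values were 1868, 2130.2 and 1955 in KO cells at day 10, against 1948, 1802 and 1075 in WT cells. At day 0 it held 1691, 2759 and 2758 in KO cells and 2288, 2167 and 2672 in WT cells. The WT libraries of day 10 were all below those of day 0, as for 11.8% of all genes (log2 -0.60, SE 0.29, limma adjusted p = 0.312), while KO libraries overlapped (log2 -0.24, adjusted p = 0.566). With shallow libraries only, the day difference was 0.23 in KO cells and -0.52 in WT cells. Per kb, Uhrf1 stood at 1.55 ± 0.12 of Dnmt1 in KO cells and 1.49 ± 0.09 in WT cells at day 10, and at 1.73 ± 0.10 in KO cells and 1.80 ± 0.05 in WT cells at day 0 (SD, n = 3 each). In this ratio the days did not overlap in WT cells and overlapped in KO cells.

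Per kb of gene span, Zfp57 came first at day 0 in both lines. This order depends on the span, introns included, which is 9566 bases for Zfp57 and 75444 for Tet1. In scaled reads not divided by span Tet1 came first at day 0. Its mean was 8118 in KO cells and 8220 in WT cells, against 2776 and 2774 for Zfp57. Per kb, Zfp57 led in KO cells with 290.2 scaled reads, before Uhrf1 with 119 ± 31 and Tet1 with 108 ± 24. Dnmt1 with 68.4 ± 15.1 and Dnmt3l with 67.1 ± 23.1 came next (SD, n = 3). Uhrf1 and Tet1 did not differ beyond their spread, nor did Dnmt1 and Dnmt3l. Tet2 with 47.2 ± 10.1 and Dnmt3b with 30.4 ± 9.9 followed, and Dnmt3a with 11.7 ± 1.4, Tet3 with 8.23 ± 1.74 and Tdg with 7.04 ± 1.48 closed the order, the last pair within their spread. In WT cells at day 0 Uhrf1 with 118 ± 13 and Tet1 with 109 ± 38 followed Zfp57, then Dnmt3l with 72.9 ± 24.6 and Dnmt1 with 65.4 ± 6.8, both pairs within their spread, and Tdg with 8.51 ± 1.63 and Tet3 with 8.20 ± 0.66 closed the order, also within it. At day 10 in KO cells Uhrf1 with 98.5 ± 6.6 and Zfp57 with 80.5 ± 16.8 led, and Dnmt1 with 63.8 ± 8.4, Dnmt3b with 60.4 ± 12.2 and Dnmt3l with 58.6 ± 12.4 lay within each other's spread. Tet1 then stood at 34.7 ± 6.2, above Tet3 with 17.8 ± 6.1, Dnmt3a with 15.9 ± 2.6, Tet2 with 10.7 ± 1.1 and Tdg with 5.84 ± 0.75. In WT cells at day 10 the order was led by Uhrf1 with 79.8 ± 23.2 and Dnmt1 with 54.1 ± 16.9, and Zfp57 with 38.9 ± 16.6 lay within the spread of Dnmt3b with 43.8 ± 9.4 and Dnmt3l with 34.1 ± 18.5.

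The comparison of KO with WT cells sets the KO line beside its parental line. Loss of G9a cannot be told apart here from other differences between the lines. At day 0 no gene of the set passed: their log2 changes ran from -0.27 (Tdg) to 0.32 (Tet2) with a median of 0.01, 5 of 10 were above 0, and KO and WT libraries overlapped for all 10, while 5.5% of all genes were above and 4.98% below with no overlap. Limma called 0 of 10, with 0 at an unadjusted p under 0.05 (3.82% of all genes), and edgeR and DESeq2 also called 0; limma called 0% of all genes. The intervals are wide: for Zfp57 the 95% interval was -0.80 to 0.97, and for Dnmt3a, the narrowest, -0.56 to 0.54. Within depth classes the values ran from -0.54 (Dnmt3l) to 0.30 (Tet3) between shallow libraries (1 KO, 2 WT) and from -0.47 (Zfp57) to 0.20 (Dnmt3b) between deep ones (2 KO, 1 WT).

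At day 10, 9 of the 10 genes were above 0 in KO against WT cells, Tdg being the exception, and none passed. The median log2 change was 0.50, beside -0.26 for all genes tested and -0.02 for the 10473 genes with a mean of at least 100 scaled reads. Limma called 0 of 10 and 0% of all genes; 2 of 10 (Zfp57 and Dnmt3a) were at an unadjusted p under 0.05, as were 11.9% of all genes. On recovered reads edgeR called 0 of the 10, as it called 0 of 14884 genes. DESeq2 called 1 of the 10, Dnmt3a, and 558 of 16428 genes. Dnmt3a, Tet1 and Zfp57 were higher in every KO library than in any WT library, as were 5.54% of all genes, and Tdg was lower in every KO library, as were 12.6%. Values of Tet1 (log2 0.64, SE 0.30, adjusted p = 0.426), Tet2 (0.51), Tet3 (0.50), Dnmt3b (0.47), Uhrf1 (0.35) and Dnmt1 (0.29) lay between. The WT replicate 3 of day 10 was the lowest of its group in 7 of 10 genes, and without it the median of the 10 was 0.33 and Dnmt1 was at -0.01. The stem cell markers moved alongside: 12 of 12 were above 0 (median log2 1.23), with summed levels of 11790 to 15312 in KO cells, against 3619 to 8637 in WT cells, and none was at 0. Their part in the values of Zfp57, Tet1 and the other genes was not tested.

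No difference between the lines in their day changes passed the test. This difference of the day changes, KO minus WT, was called for 0 of 10 genes in limma, as for 0% of all genes. At an unadjusted p under 0.05 were 0 of the 10, beside 8.7% of all genes. EdgeR and DESeq2 called 0 of the 10 too, with 0 of 14884 genes called in edgeR and 144 of 15987 in DESeq2. The difference was 1.10 for Dnmt3l (SE 0.65, limma adjusted p = 0.631) and 1.04 for Zfp57 (SE 0.58, limma adjusted p = 0.617). Tet1 and Dnmt3a were each at 0.61, and 9 of 10 were above 0 with a median of 0.43, beside -0.36 for all genes. Without the libraries with receptor gene reads Dnmt3l was at 0.17 and Zfp57 at 0.42, the median was 0.02, and 5 of 10 were above 0. The call of Tet3 in KO cells and not in WT cells is therefore no shown difference (0.51, SE 0.41, adjusted p = 0.726).

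The wider machinery was described with lists chosen with earlier results of these data known. Of the 63 genes of these lists limma called 2 in the day comparison of each line, all lower, which is 3.17% in each, beside 8.89% of all genes in KO cells and 4.42% in WT cells. The KO against WT comparisons called 0 of 63, as they called 0% of all genes. Of 9 TET cofactors and partners, Prdm14, a transcriptional regulator of naive stem cells that is known to lower DNA methylation in mouse, fell in KO cells (181 ± 52 at day 10 and 763 ± 208 at day 0, log2 -2.06, limma adjusted p = 0.0225) and in WT cells (89.2 ± 37.9 and 497 ± 330, log2 -2.33, adjusted p = 0.0112; SD, n = 3 each). Of 10 genes of methyl donor supply, Ahcy, which clears S-adenosylhomocysteine, fell in KO cells (92.5 ± 7.9 at day 10 and 296 ± 71 at day 0, log2 -1.64, adjusted p = 0.0234). Tdh, a threonine dehydrogenase typical of mouse stem cells, fell in WT cells (136 ± 100 and 1099 ± 594, log2 -3.09, limma adjusted p = 0.00251). Ahcy was not called in WT cells, nor Tdh in KO cells. Limma called 0 of the 63 genes for a difference of the day changes, so these are no shown differences between the lines. In limma 0 of 10 maintenance partners, 0 of 9 readers of methylated DNA, 0 of 13 repair genes and 0 of 12 ZFP57 partners and other imprint factors passed in any comparison. Their median log2 changes between days lay between -0.12 and -0.51 in KO cells, beside -0.68 for all genes, and between -0.09 and -0.47 in WT cells, beside -0.20. The TET cofactors had medians of -0.52 in KO cells and -0.61 in WT cells, and the methyl donor genes -0.49 in KO cells and -0.82 in WT cells.

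The genes closest in pattern were ranked by Pearson r of log2 values over the 12 libraries, among 10463 genes with a mean of at least 100 scaled reads, as a description with no test. Zfp57 was nearest to Tdgf1 (r 0.991), Sod2 (0.987) and Ooep (0.986). Tet1 was nearest to Sema4b (0.987), Ubxn2a (0.984) and Mpdu1 (0.984). Dnmt3b was nearest to Vcl (0.964), Dusp6 (0.951) and Brd3 (0.94). Dnmt3l was nearest to Pnma5 (0.957), Mcm2 (0.953) and Rpa2 (0.95), and Dnmt1 to Sdf4 (0.98), Fam50a (0.969) and Phb2 (0.964). Within the set Tet1, Tet2 and Zfp57 went together (r 0.955 to 0.977), and Tet3 ran against them (r -0.622 to -0.704). The libraries of a group share their day and line, and all day 10 libraries are shallow while day 0 mixes shallow and deep ones.

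The line is a hybrid of mus and cas genomes, and reads that carry a difference between them were counted by allele in the deposited allele table. Dnmt1 was the 1 gene of the set read about equally from both alleles. Its mus share was 48.4, 50.0 and 54.8% in the KO libraries and 51.0, 48.2 and 50.2% in the WT libraries of day 10. At day 0 it was 49.1, 48.4 and 51.3% in KO cells and 48.0, 51.8 and 46.7% in WT cells. The groups overlapped, with 271 to 4408 allelic reads per library; the Wilson 95% interval of the shallowest library was 44.3 to 56.1%, and it covers counting error only. Over all libraries 48.9% of 15214 allelic reads were mus, beside a median of 52.4% over 72 genes within 5 Mb.

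The other 9 genes were read almost wholly as mus. Their mus share over all libraries ran from 91.0% (Dnmt3b) to 99.9% (Tet3), and the genes around them had medians of 97.8 to 99.4%. Whole chromosomes read so too, with median shares of 98.7 to 99.1% for chromosomes 3, 6, 10, 12 and 17 and 94.9% for chromosome 2. Dnmt3b, on chromosome 2, stood below its neighbours at 98.8%. Its share was 90.8 ± 1.6% in KO cells and 93.1 ± 2.1% in WT cells at day 10. At day 0 it was 90.4 ± 0.2% in KO cells and 91.0 ± 2.8% in WT cells. Zfp57 had 0 to 106 allelic reads per library and did not enter the test at its minimum of 10; from 5 allelic reads its day comparison in KO cells could be fitted and did not pass (edgeR adjusted p = 0.936). Tet3 was read from mus in 2604 of 2607 allelic reads. The edgeR test of the mus share called 0 of 9 genes in every comparison. It called 0.0913% of all genes between KO and WT at day 10 and 0% at day 0, and 1.36% between days in KO cells and 0.0641% in WT cells. Apart from Dnmt1, the tested genes had few cas reads, as did the genes around them. For these genes the test therefore says little about allele use. How reads were assigned to alleles is not given in the sources used here.

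**Figure D4:**
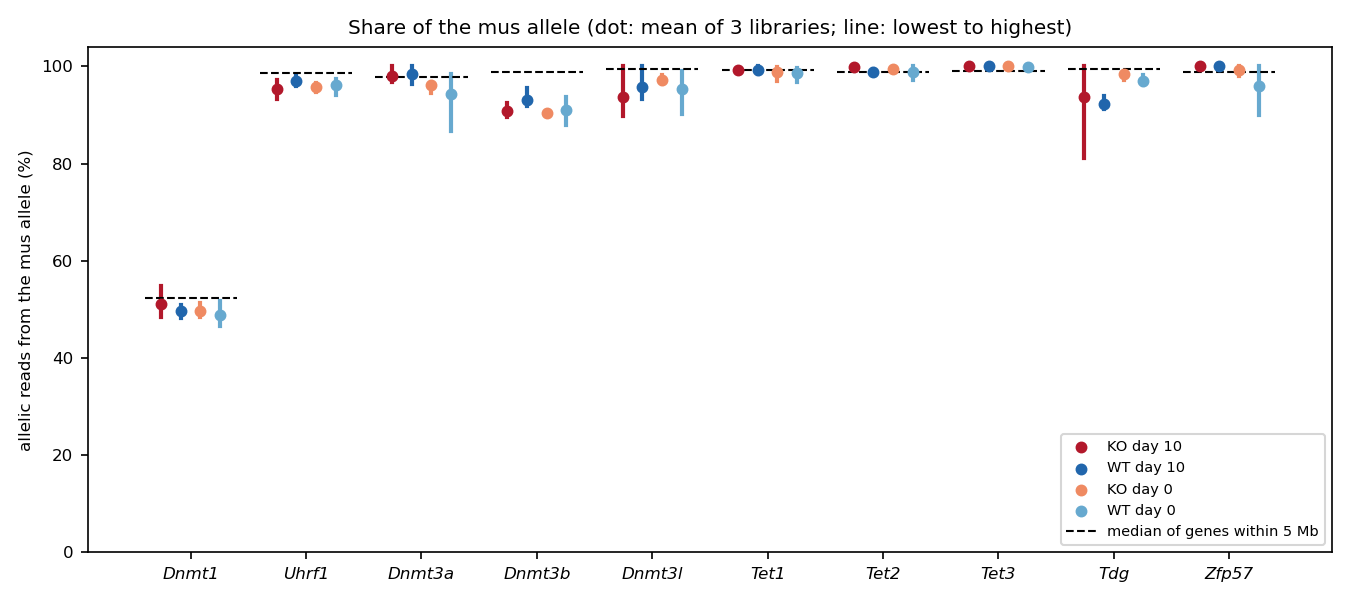
Share of allelic reads from the mus allele (y axis, percent) for each gene; dots are means of the 3 libraries of a group (libraries with 0 allelic reads, 1 of WT day 10 for Zfp57, are left out), lines run from the lowest to the highest library, and the dashed line is the median of genes within 5 Mb. Dnmt1 lies near 50% in all 4 groups and the group means of the other 9 genes are at or above 90.4%.

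H3K9ac peaks were called by the authors with MACS2 per ChIP sample, and with 1 sample per group there is no test. A peak within 1 kb of the start given in the gene table was found for 8 of 10 genes in KO cells and 7 of 10 in WT cells at day 10, and for 6 of 10 in KO cells and 6 of 10 in WT cells at day 0. Of all genes, 52.1% had one in KO cells and 50.8% in WT cells at day 10, and 40% in KO cells and 49.7% in WT cells at day 0. The deposited lists hold many weak peaks: the -log10 q values of the 10 genes' peaks ran from 0.043 to 6.37. With a q under 0.05, a limit chosen after seeing the data, a peak was left for 5 of 10 genes in KO cells and 4 in WT cells at day 10, and for 2 in KO cells and 1 in WT cells at day 0, beside 34.1% of all genes in KO cells and 34.6% in WT cells at day 10, and 15.2% in KO cells and 10.3% in WT cells at day 0. Uhrf1 passed that limit in all 4 groups, Tdg and Tet3 in both lines at day 10, and Tet2 in all but WT cells at day 0. Zfp57 passed it in KO cells at day 10. The Zfp57 peaks of the KO lists are those at its second start, and the WT peaks there lay beyond 1 kb of the table's start. The peaks of Dnmt3a, Dnmt3b and Dnmt3l near that start passed it in no group. Uhrf1 had the highest fold of the peaks near these starts in each group, with the authors' fold enrichment at 5.48 in KO cells and 5.94 in WT cells at day 10, and 4.92 in KO cells and 4.88 in WT cells at day 0. Tdg had one in all 4 groups, at 5.48 in KO cells and 3.60 in WT cells at day 10 and 3.16 in KO cells and 3.22 in WT cells at day 0. Tet2 had a listed peak over its start in all 4 groups, at 3.32 in KO cells and 3.38 in WT cells at day 10, and 3.52 in KO cells and 2.98 in WT cells at day 0. Tet3 had one at 4.00 in KO cells and 3.09 in WT cells at day 10, and at day 0 none in KO cells and 2.40 in WT cells. Dnmt3a had one at day 10, at 2.43 in KO cells and 3.18 in WT cells, and none at day 0. Dnmt3l had one in all 4 groups, at 2.38 in KO cells and 2.38 in WT cells at day 10 and 2.45 in KO cells and 2.66 in WT cells at day 0. Dnmt3b had one in all 4 groups, at 2.87 in KO cells and 2.76 in WT cells at day 10 and 2.55 in KO cells and 2.52 in WT cells at day 0.

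For Dnmt1 and Tet1 no peak lay within 1 kb of that start in any group, and listed peaks lay elsewhere. The row of Dnmt1 begins at the most upstream RefSeq start, which is known in mouse as that of the oocyte form, while RefSeq lists 2 others 6909 and 7265 bases downstream. In all 4 groups the strongest peak in the gene was centred there, 7266 bases downstream in KO cells and 7576 in WT cells at day 10, and 7778 in KO cells and 7538 in WT cells at day 0. Its fold enrichment was 5.73 in KO cells and 5.69 in WT cells at day 10, and 3.34 in KO cells and 2.67 in WT cells at day 0, with a q under 0.05 at day 10 and not at day 0. Upstream of the first start, within 10 kb, KO cells at day 10 had weak peaks centred 3778 and 6416 bases away (folds 2.23 and 2.35), and WT cells at day 0 had one 3062 bases away (fold 2.71), all with a q above 0.05. Starts 1 and 3 are shown to set these places side by side, at chr9:20959839-20960138 and chr9:20952574-20952873 (GRCm38.p6, minus strand), CpGs in capitals.
Dnmt1 start 1: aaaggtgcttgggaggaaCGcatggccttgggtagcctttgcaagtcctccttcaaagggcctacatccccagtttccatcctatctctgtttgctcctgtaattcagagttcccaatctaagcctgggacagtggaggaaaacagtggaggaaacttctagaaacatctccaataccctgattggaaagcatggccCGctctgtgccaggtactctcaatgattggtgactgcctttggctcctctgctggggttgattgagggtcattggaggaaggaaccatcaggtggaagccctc
Dnmt1 start 3: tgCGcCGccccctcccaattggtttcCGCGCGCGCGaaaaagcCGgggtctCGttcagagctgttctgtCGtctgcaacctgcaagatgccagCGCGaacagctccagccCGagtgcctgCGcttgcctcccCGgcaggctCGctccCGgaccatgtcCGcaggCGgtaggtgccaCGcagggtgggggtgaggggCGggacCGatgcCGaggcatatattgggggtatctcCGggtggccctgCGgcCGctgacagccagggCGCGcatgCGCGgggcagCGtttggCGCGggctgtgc
The first holds 2 CpGs, and 85.9% of RefSeq promoters hold as many or more; the third holds 33, and 8.56% do. Tet1 begins in the gene table within a shorter span than in RefSeq (75444 and 82754 bases), and its nearest upstream peaks were centred 6478 bases before the table's start in KO cells and 6185 in WT cells at day 10, and 3623 and 6596 bases in KO cells and 9182 in WT cells at day 0. Their folds were 2.74 in KO cells and 3.79 in WT cells at day 10, and 2.57 and 3.28 in KO cells and 3.03 in WT cells at day 0, and the one of WT cells at day 10 had a q under 0.05.

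Other downstream starts had listed peaks as well. Dnmt3a had one within 1 kb of its start 84764 bases into the gene in every group, at 2.60 in KO cells and 3.15 in WT cells at day 10 and 2.79 in KO cells and 2.64 in WT cells at day 0, all with a q above 0.05. At the second start of Zfp57, the 9-CpG sequence above, the peaks reached 3.24 in KO cells and 3.74 in WT cells at day 10, and 3.16 in KO cells and 2.95 in WT cells at day 0. At the second start of Dnmt3l they reached 2.35 in KO cells and 3.07 in WT cells at day 10, and 3.57 in KO cells and 2.73 in WT cells at day 0. Of the 8 genes whose span matches RefSeq within 1 base, a peak lay within 1 kb of some RefSeq start for 8 in KO cells and 8 in WT cells at day 10, and for 7 in KO cells and 8 in WT cells at day 0, Tet3 being the missing one. These counts set no limit on q. The share of all genes with a peak near any RefSeq start was not computed, so the counts cannot be set against it. Fold values of lists from different ChIP samples are the authors' own and are given side by side only. Some of the ChIP input samples carry day labels that conflict, and these were left unassigned.

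**Figure D5:**
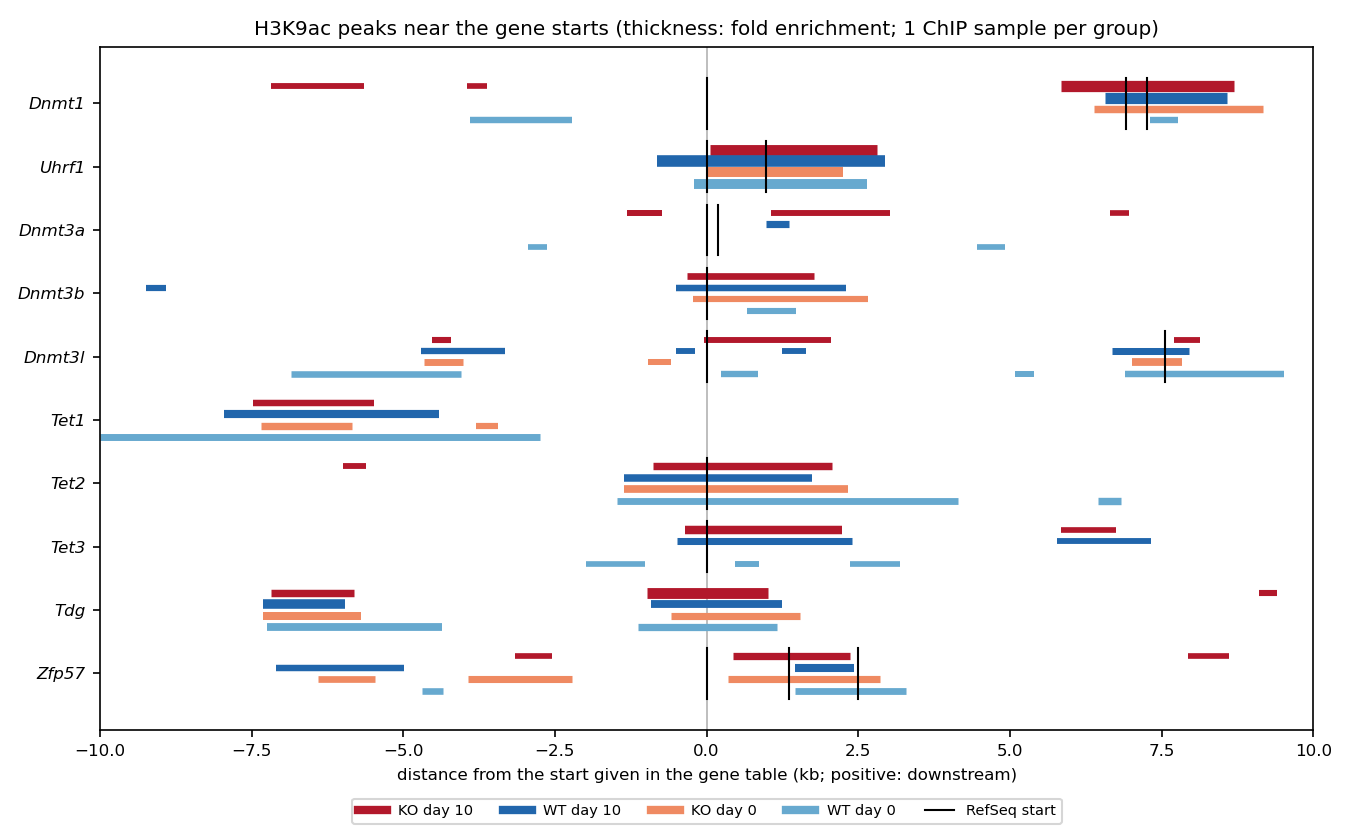
H3K9ac peaks within 10 kb of the start given in the gene table (x axis, kb, downstream to the right) for each gene, 1 row of bars per group; bar thickness follows the fold enrichment and black ticks mark RefSeq starts (none is drawn for Tet1 and Tdg, whose spans differ). Each group has a Dnmt1 peak centred 7266 to 7778 bases downstream, at its other starts, and others lie upstream in KO cells at day 10 and WT cells at day 0; the Tet1 peaks lie upstream of its row.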

How the data were processed

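Total RNA was measured in 12 libraries (4 groups of 3). The authors deposited a gene table of signal scaled to a common total per library; per the submitters' processing notes TopHat, HOMER and mm9 were used (versions not given in the sources used here). Dividing by each library's step gave whole reads for 100% of values within 0.006, so edgeR and DESeq2 were run on those as alternatives; edgeR called 0 genes between KO and WT at either day, 1048 between days in WT cells and 1065 in KO cells. The design foresaw counts, and limma was used instead because the values are scaled. Genes above 1 in at least 3 libraries (20624) were fitted over all 12 libraries with limma (trend and robust) on log2 of the value plus a pseudocount of 1. Of the gene lengths, 99.4% equal the genomic span. The authors deposited allele counts per gene for mus and cas; the mus share was tested with edgeR from 10 allelic reads. H3K9ac peaks, with the authors' fold enrichment and -log10 q, came from Novoalign and MACS2, per the submitters' processing notes. Scripts were tested on simulated data. The genes and lists were chosen with earlier results of these data known; for likeness, the 3 genes with the highest r were named. Promoters are from RefSeq (GRCm38.p6). Versions were limma 3.58.1, edgeR 4.0.16, DESeq2 1.42.0, R 4.3.3 and Python 3.11.15.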

Additional observations from a re-analysis of the deposited data

How the results depend on the processing

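Tet2 in both lines, and Tet1 and Zfp57 in WT cells, passed the day comparison under all 17 alternatives, Tet1 in KO cells under 15, Zfp57 in KO cells under 11 and Tet3 in KO cells under 9. The fit with a replicate block called 0 genes between KO and WT at either day, 850 in the day comparison of WT cells, 1612 in that of KO cells and 0 in the difference of the day changes; of the 10 genes it called 3 in each line, Tet3 in KO cells missing the threshold (adjusted p = 0.0532). Same-numbered libraries did not deviate together in every pair (correlations of -0.40 to 0.58). Between KO and WT cells at day 0, replicates 1 gave 0.43 and replicates 3 gave 0.58. KO replicate 2 with WT replicate 3, of unlike number, gave 0.60. Whether a number marks libraries prepared together is not given by the labels and was not settled. Among the fits that left out 1 library, the count of KO day calls was lowest, 199 genes and 1 of the 10, without KO replicate 3 of day 10, 298 without KO replicate 2 of day 10 and 502 without replicate 1, 304 without KO replicate 2 of day 0 and 285 without replicate 3, and highest, 2889, without KO replicate 1 of day 0; in WT cells it was 466 without replicate 2 of day 10 or replicate 3 of day 0. Where values differ between settings the cause was not tested.

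For KO against WT cells at day 0, 0 genes were called, and 15 with DESeq2 on recovered reads. For KO against WT cells at day 10, 0 genes were called, and 111 with a pseudocount of 0.1, 558 with DESeq2 on recovered reads, 7 with a depth term and 1 with only the compared groups in the fit. Of the 10 genes, 1 passed with DESeq2 on recovered reads. For day 10 against day 0 in KO cells, 1834 genes were called, and 1054 with a pseudocount of 5, 1065 with edgeR on recovered reads, 3350 with DESeq2 on recovered reads, 2866 with a depth term, 5409 without both libraries with receptor gene reads and 4165 with only the compared groups in the fit. The fits that left out 1 library called 199 to 2889 genes. Of the 10, 1 to 4 passed then. For day 10 against day 0 in WT cells, 911 genes were called, and 1823 with DESeq2 on recovered reads, 2141 without both libraries with receptor gene reads and 372 with only the compared groups in the fit. The fits that left out 1 library called 466 to 1051 genes. For the difference of the day changes, 0 genes were called, and 144 with DESeq2 on recovered reads.

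In KO against WT cells at day 0, the log2 change took the other sign for Dnmt1 -0.091, Dnmt3b -0.025, Tet1 -0.12, Tet3 0.085 and Zfp57 -0.28 (with a depth term), for Dnmt3a 0.096, Dnmt3l 0.20 and Uhrf1 0.22 (without both libraries with receptor gene reads), for Tet1 -0.035, Tet3 0.0088 and Uhrf1 0.011 (edgeR on recovered reads), for Tet1 -0.048 and Tet3 0.020 (DESeq2 on recovered reads). With 1 library left out the values were Dnmt1 -0.078 to 0.24, Dnmt3a -0.17 to 0.096, Dnmt3l -0.37 to 0.20, Tet1 -0.29 to 0.25, Tet2 -0.070 to 0.60, Tet3 -0.18 to 0.078, Uhrf1 -0.13 to 0.22 and Zfp57 -0.21 to 0.51. In KO against WT cells at day 10, the log2 change took the other sign for Dnmt1 -0.0094 (without both libraries with receptor gene reads). With 1 library left out the values were Dnmt1 -0.0094 to 0.44. In day 10 against day 0 in KO cells, the log2 change took the other sign for Dnmt1 0.23, Dnmt3l 0.16, Tdg 0.050 and Uhrf1 0.067 (TMM scaling), for Dnmt1 0.21, Dnmt3l 0.15, Tdg 0.036 and Uhrf1 0.053 (RLE scaling), for Dnmt1 0.057 (edgeR on recovered reads), for Dnmt1 0.21, Dnmt3l 0.13, Tdg 0.038 and Uhrf1 0.039 (DESeq2 on recovered reads), for Dnmt1 0.19, Dnmt3l 0.43 and Uhrf1 0.081 (with a depth term), for Dnmt1 0.31, Uhrf1 0.23 and Dnmt3l 0.51 (only the shallow libraries, no test). With 1 library left out the values were Dnmt1 -0.28 to 0.042 and Dnmt3l -0.48 to 0.040. In day 10 against day 0 in WT cells, the log2 change took the other sign for Dnmt3a 0.042 (RLE scaling), for Dnmt3a 0.045 (DESeq2 on recovered reads), for Tdg -0.059 (with a depth term), for Tdg -0.057 (only the shallow libraries, no test). With 1 library left out the values were Tdg -0.057 to 0.22. In the difference of the day changes, the log2 change took the other sign for Dnmt1 -0.25, Dnmt3b -0.24, Tet2 -0.24 and Uhrf1 -0.14 (without both libraries with receptor gene reads). With 1 library left out the values were Dnmt1 -0.054 to 0.40, Dnmt3b -0.047 to 0.43 and Tet2 -0.087 to 0.58.

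The allele test called 0 genes between KO and WT at day 0 (3 with a replicate block), 7 at day 10 (4 with a replicate block, 2 to 11 with 1 library left out), 106 between days in KO cells (185 with at least 5 allelic reads, 18 to 429 with 1 library left out) and 5 in WT cells (29 with a replicate block, 1 with at least 20 allelic reads, 1 to 85 with 1 library left out). The log2 odds difference of the mus allele of Dnmt1 ran, with 1 library left out, from -0.014 to 0.13 between KO and WT at day 0, -0.028 to 0.15 at day 10, -0.022 to 0.16 between days in KO cells and -0.0068 to 0.14 in WT cells. A peak over the start itself was found for 5 of 10 genes in KO cells and 5 in WT cells at day 10. At day 0 it was found for 4 in KO cells and 3 in WT cells. A peak within 5 kb was found for 9 in KO cells and 9 in WT cells at day 10, and for 7 in KO cells and 10 in WT cells at day 0. A peak with -log10 q of at least 10 was found for 0 in all 4 groups. The shares of all genes under these settings were not computed. With a q under 0.05 the counts were 5 in KO cells and 4 in WT cells at day 10, and 2 in KO cells and 1 in WT cells at day 0. The limit on q, the starts other than the table's and the comparison of shallow libraries alone were chosen after seeing the data. Depth limits Tdg, with as few as 31 reads in a library, and the allele share of Zfp57, which at day 0 could be fitted between KO and WT without WT replicate 2 (log2 odds 1.85, edgeR adjusted p = 1).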
